A study of Mus musculus with 13 samples.

Results

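Red blood cell transcripts were followed through RNA of the mouse foregut and trachea, as 9 genes chosen by their symbols: the embryonic globins *Hba-x*, *Hbb-y* and *Hbb-bh1*, the alpha globins *Hba-a1* and *Hba-a2*, which persist into adult life, and the erythroid genes *Alas2*, *Slc4a1*, *Gata1* and *Klf1*. All 9 were found among the 32793 genes listed for both stages, and all 9 passed the filter on low counts in every fit. The samples were 4 mutant and 3 control tracheas of E11.5 embryos and 3 mutant and 3 control foreguts of E10.5 embryos, 13 libraries in all, each from its own dissection. Mutants carried *Foxg1Cre;Gli3TFlag/+*: the transgene, which makes a truncated repressor form of Gli3, was switched on by *Foxg1Cre* in the mesendoderm of the foregut. Controls carried *Gli3TFlag/+* without the Cre, so every embryo held the transgene. The labels give the strain as C57BL/6, whereas the study's methods describe an outbred background. The labelled genotype was checked on *Gli3*, which had 437, 376, 403 and 399 CPM (counts scaled to a library of fixed size) in E11.5 mutants against 266, 192 and 204 CPM in E11.5 controls, and 329.6, 323 and 352 CPM in E10.5 mutants against 256, 251 and 284 CPM in E10.5 controls. Every mutant library was above every control library of its stage, with a log2 fold change of 0.87 at E11.5 (adjusted p = 0.0102 by edgeR's quasi-likelihood test) and 0.35 at E10.5 (adjusted p = 0.0588).

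At these stages the blood of the mouse embryo is filled by primitive erythroid cells, which arise in the yolk sac, enter the circulation and mature there while still nucleated. Their hemoglobin pairs an alpha-type chain, either the embryonic zeta chain of *Hba-x* or the alpha chain of *Hba-a1* and *Hba-a2*, with a beta-type chain from *Hbb-bh1* or *Hbb-y*, and as the cells mature *Hbb-bh1* is known to give way to *Hbb-y* and *Hba-x* to the adult alpha genes. Adult beta globin is made mainly by the definitive cells that the fetal liver releases later. *Gata1* and *Klf1* encode the transcription factors that drive red cell genes, *Alas2* the enzyme of the first step of erythroid heme synthesis, and *Slc4a1* band 3, the anion exchanger of the red cell membrane.

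In GENCODE M21 on GRCm38 the alpha-type genes lie in a row on the plus strand of chromosome 11, *Hba-x* at chr11:32276400-32278116, *Hba-a1* at chr11:32283511-32284465 and *Hba-a2* at chr11:32296489-32297298. The beta-type genes lie on the minus strand of chromosome 7, *Hbb-y* at chr7:103851749-103853216, *Hbb-bh1* at chr7:103841637-103843164 and the adult gene *Hbb-bs* at chr7:103826534-103828096. *Slc4a1* is at chr11:102348824-102366203, *Klf1* at chr8:84901928-84905291, *Gata1* at chrX:7959260-7978071 and *Alas2* at chrX:150547375-150570638. Bases upstream of the start site are shown for an embryonic and an adult gene of each cluster, because these genes moved together across libraries while the ratio of embryonic to adult transcripts differed between stages. They were read 5′ to 3′ on the gene's strand from RefSeq on GRCm38.p6, which gave this window for 7 of the 9 genes, and were kept short where GENCODE places a transcript. Capitals mark matches, on either strand, to 3 short motifs. The first is CCAAT, bound by the general factor NF-Y. The second is the motif of the GATA factors, which is GATA with adenine or thymine just before it and a purine just after it. The last, CCNCNCCCN with N for any base, is a CACCC-type motif of the kind bound by Klf1.
*Hba-x* (30 bases, chr11:32276485-32276514, plus strand): ctggctcTGATAAcaggctccaccctgcaa
*Hba-a2* (150 bases, chr11:32296342-32296491, plus strand): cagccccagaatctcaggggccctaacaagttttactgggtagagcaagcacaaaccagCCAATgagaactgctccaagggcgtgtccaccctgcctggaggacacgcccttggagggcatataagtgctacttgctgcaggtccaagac
*Hbb-y* (150 bases, chr7:103853208-103853357, minus strand): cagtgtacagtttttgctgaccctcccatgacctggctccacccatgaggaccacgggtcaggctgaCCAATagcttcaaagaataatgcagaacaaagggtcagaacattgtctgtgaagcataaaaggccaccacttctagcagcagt
*Hbb-bs* (100 bases, chr7:103827929-103828028, minus strand): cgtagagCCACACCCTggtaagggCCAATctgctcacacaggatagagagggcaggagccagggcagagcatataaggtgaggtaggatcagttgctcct

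Within the 150 bases before the start site, CCAAT was present in 4 of the 7 genes (*Hbb-y*, *Hba-a1*, *Hba-a2* and *Klf1*), against 24.5% of 32851 mouse promoters of the same length. The GATA motif was present in 3 of 7 (*Hba-x*, *Alas2* and *Klf1*), against 16.0% of promoters, and the CACCC-type motif in 3 of 7 (*Hba-x*, *Alas2* and *Gata1*), against 38.0%. The CACCC-type match of *Hba-x* lies outside the stretch printed. The letters CACCC alone do not make a match to this pattern, and they stand unmarked in the stretches of *Hba-x*, *Hba-a2* and *Hbb-y*. No match of 1 motif overlapped a match of another in the stretches printed and 3 of the 4 CACCC-type matches of *Alas2* overlapped at least 1 other of them. A match says only that the letters are there. The windows of *Hba-a1* and *Hba-a2* shared an unbroken run of 147 bases. Their transcripts are also nearly alike: 81.0% of the 75-nt stretches of *Hba-a2* and 62.2% of those of *Hba-a1* occur in another gene, in both cases mostly in each other. With reads of 75 nt, the split between these 2 genes rests on the authors' estimate, and their sum is used below wherever alpha globin is compared. None of the 75-nt stretches of the other 7 genes occurred in another gene.

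The libraries held 9646701 to 17988461 counts each. Globin transcripts took 0.555% to 9.32% of all TPM (transcript abundance per length, scaled to the same total in each library), and the highest library held 16.8 times the share of the lowest. A pair of control libraries stood apart by being low in every one of the 9 genes. In E10.5 control replicate 3 the genes were 7.62 to 15.0 times lower than the mean of the other E10.5 controls, and in E11.5 control replicate 1 they were 3.38 to 8.18 times lower than the mean of the other E11.5 controls. E11.5 control replicate 1 held 12547575 counts, the fewest of the E11.5 controls, and E10.5 control replicate 3 held 17970522. The shallowest library was E11.5 mutant replicate 4, with 9646701. The part of depth in the low values was not tested. Some results are therefore also given without this pair, among them the correlations, the stage differences of the ratios and the E10.5 genotype values. The stage and interaction values of single genes, and most E11.5 genotype values, are not. In bulk tissue, fewer red cells and less RNA per red cell cannot be told apart.

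*Hba-x* was the most abundant of the 9 transcripts per length in every group. It had 24898, 14277, 46944 and 27285 TPM in E11.5 mutants against 5511, 17197 and 32474 TPM in E11.5 controls. In the foregut it had 27815, 31866 and 19682 TPM in E10.5 mutants against 30398, 36982 and 3133 TPM in E10.5 controls. Mutants and controls overlapped at both stages. By group mean the order was E11.5 mutants (28351 ± 13624 TPM, SD, n = 4), E10.5 mutants (26455 ± 6205, n = 3), E10.5 controls (23504 ± 17947, n = 3) and E11.5 controls (18394 ± 13522, n = 3), and no neighbours in this order differed by more than their SD.

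*Hbb-y*, which encodes the epsilon-y chain, came second in every group. It had 15400, 9016, 30262 and 23023 TPM in E11.5 mutants against 3607, 12678 and 19117 TPM in E11.5 controls. In the foregut it had 16123, 18280 and 11727 TPM in E10.5 mutants against 17883, 20033 and 1704 TPM in E10.5 controls. The same libraries were high and low as for *Hba-x*, with E11.5 mutant replicate 3 at the top and E10.5 control replicate 3 at the bottom.

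*Hbb-bh1*, which encodes the earliest beta-type chain, betaH1, had 1646, 919, 6567 and 3346 TPM in E11.5 mutants against 424, 2336 and 4604 TPM in E11.5 controls. It had 5090, 3875 and 3412 TPM in E10.5 mutants against 5529, 4707 and 342 TPM in E10.5 controls. Of the 9 genes it varied most within groups, with an SD of 1.60 on the log2 CPM scale. *Hba-a1* and *Hba-a2* followed, at 1572 to 4964 TPM and 236 to 1600 TPM in E11.5 mutants against 543 to 3003 TPM and 116 to 679.5 TPM in E11.5 controls. In E10.5 mutants they stood at 1721 to 2614 TPM and 642 to 967 TPM, against 246 to 2767 TPM and 96.97 to 1113 TPM in E10.5 controls. *Hbb-bh1* was above *Hba-a1* in TPM in 3 of 7 E11.5 libraries and in 6 of 6 E10.5 libraries, an order read off after the values were seen.

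The remaining 4 genes were far less abundant and moved with the globins. *Slc4a1* had 129, 77.3, 213 and 192 TPM in E11.5 mutants against 29.7, 73.1 and 176 TPM in E11.5 controls, and 114, 125 and 79.4 TPM in E10.5 mutants against 113, 136 and 11.03 TPM in E10.5 controls. *Alas2* ran from 25.2 to 79.4 TPM in E11.5 mutants against 13.1 to 61.4 TPM in E11.5 controls, and from 33.3 to 52.6 TPM in E10.5 mutants against 6.48 to 60.01 TPM in E10.5 controls. In both genes mutants and controls overlapped at each stage, and the same control libraries were lowest. *Klf1* had 9.07, 6.17, 18.9 and 17.1 TPM in E11.5 mutants against 1.59, 7.76 and 11.9 TPM in E11.5 controls, and 12.2, 16.1 and 10.6 TPM in E10.5 mutants against 12.9, 18.1 and 2.04 TPM in E10.5 controls. *Gata1*, the least abundant, had 2.20, 2.28, 6.48 and 7.92 TPM in E11.5 mutants against 1.12, 3.90 and 4.81 TPM in E11.5 controls, and 3.24, 4.79 and 4.88 TPM in E10.5 mutants against 4.69, 5.71 and 0.44 TPM in E10.5 controls. Its counts ran from 9 (exact 95% interval 4.12 to 17.1, counting error only) to 127, so it was measured less precisely than the globins among the 9 genes, whose lowest count was 416.

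**Figure D1:**
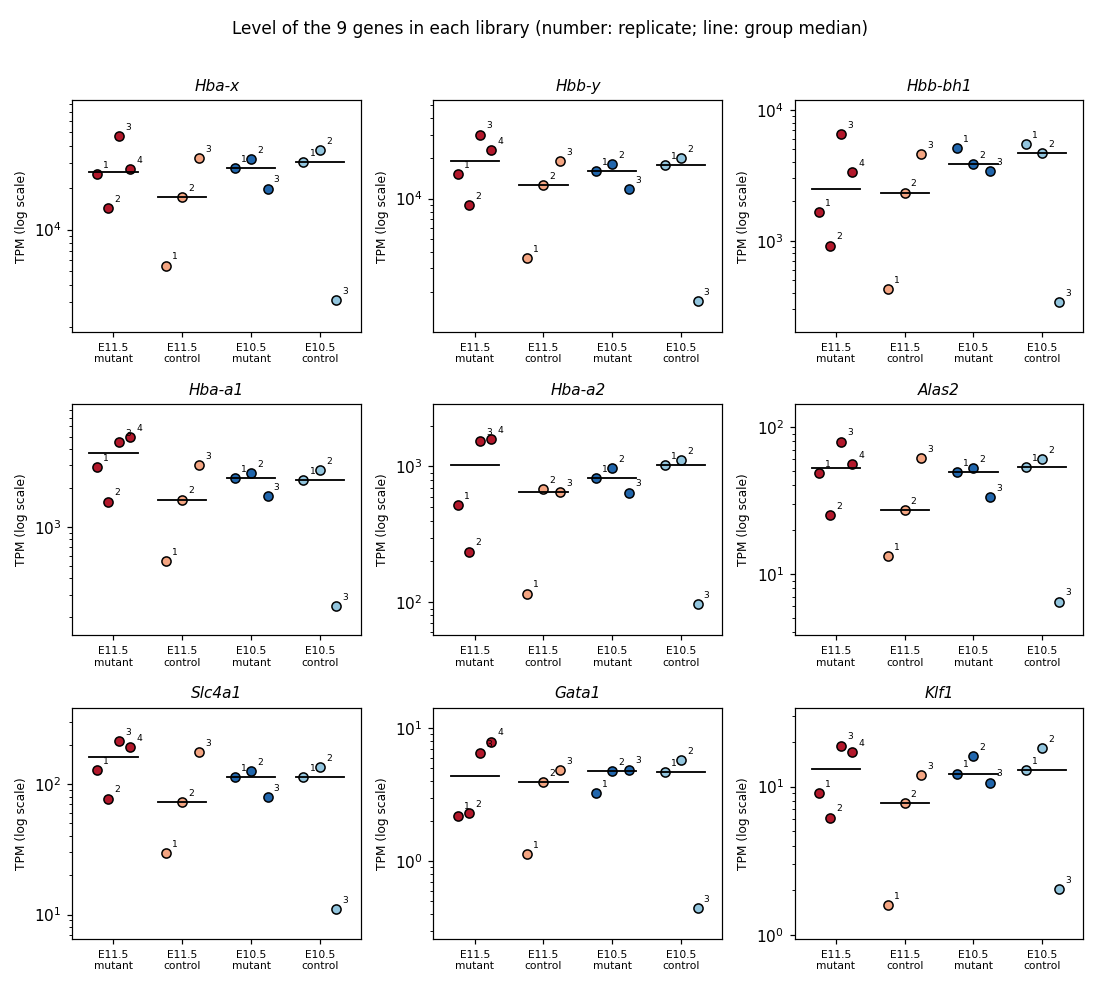
Level of each of the 9 genes in TPM (log scale) in every library of E11.5 mutants, E11.5 controls, E10.5 mutants and E10.5 controls; points are libraries with their replicate number and lines are group medians. E11.5 control replicate 1 (424 TPM of *Hbb-bh1*) and E10.5 control replicate 3 (342 TPM) are the lowest of their groups in all 9 panels, and the groups overlap in each panel.

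The 9 genes rose and fell together from library to library. After each group's mean was taken off, the log2 CPM of any 2 of them correlated across the 13 libraries at a Pearson's r of 0.907 (*Alas2* and *Gata1*) to 0.995 (*Alas2* and *Slc4a1*), with a median of 0.968 over the 36 pairs. Without E10.5 control replicate 3 and E11.5 control replicate 1 the range was 0.782 to 0.988 with a median of 0.932. Both genes of a pair come from the same library, with 1 depth and 1 dissection, and the correlations are given as a description. Summed globin TPM spanned 16.8-fold over the libraries, but the sum divided by *Alas2* TPM spanned 1.61-fold and the sum divided by *Slc4a1* TPM 1.58-fold. The SD within groups was 1.15 to 1.60 on the log2 CPM scale, against a median of 0.24 over 16132 genes, which placed the 9 genes between the 98.0th and the 99.5th percentile of all genes in spread.

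**Figure D2:**
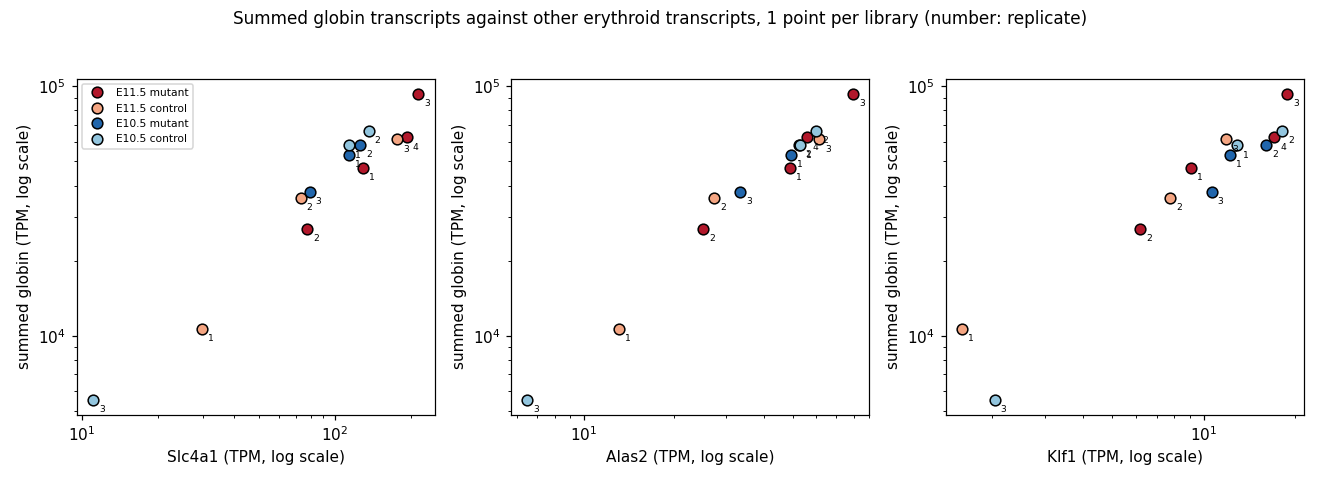
Summed TPM of 7 globin genes (vertical, log scale) against the TPM of *Slc4a1*, *Alas2* and *Klf1* (horizontal, log scale), 1 point per library with its replicate number, coloured by group. The libraries of all 4 groups fall along 1 band in each panel, with E10.5 control replicate 3 and E11.5 control replicate 1 at its low end.

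Outside the 9 genes, genes whose pattern was among the most like their mean over the 13 libraries, out of 11454 genes with an average log2 CPM of at least 2, were *Rhag* (r = 0.993), *Mt2* (0.992), *Mfsd2b* (0.991), *Tal1* (0.990), *Trim10* (0.989), *Slc25a37* (0.989) and *Car2* (0.986). With the low pair of libraries left out these genes had r between 0.964 and 0.983. *Gata1* fell below the level needed to enter this ranking. Of the 50 most alike genes, 30 were on lists of red cell genes (globins, heme synthesis, membrane, regulators, iron and enzymes). These 30 include 8 of the 9 genes themselves, which rank high because they make up the mean. The share of list genes among all 11454 was not counted. Marker lists of other cells followed the 9 genes less closely, judged by r between the mean log2 CPM of each list's measured genes and that of the 9 genes, after group means were taken off: 0.67 for megakaryocyte and platelet genes, 0.59 for hepatoblast genes, 0.17 for macrophage genes, 0.13 for endothelial genes, -0.28 for heart muscle genes, -0.30 for foregut epithelial genes and -0.48 for foregut mesenchymal genes. Without the low pair these were, in the same order, 0.69, 0.33, -0.02, 0.31, -0.27, -0.42 and -0.21. The hepatoblast list summed to 12.7 to 30.9 TPM in all libraries and its defining genes *Alb* and *Afp* reached at most 0.91 and 3.52 TPM, with *Alb* at 0 in 3 libraries.

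The question of the genotype was whether *Foxg1Cre;Gli3TFlag/+* embryos differed from controls in these transcripts at each stage. No difference passed the test at either stage. In E11.5 tracheas, 0 of the 9 genes were called by edgeR's quasi-likelihood test at an adjusted p under 0.05, where 2.5% of 15376 genes were called (1.81% higher and 0.689% lower), and 0 of 9 by DESeq2, which called 5.95%. At an unadjusted p under 0.05 it was 0 of 9, against 19.1% of all genes. The background depended on single libraries. With all libraries edgeR called 385 genes, without E11.5 control replicate 3 it called 60, and without E11.5 control replicate 1 it called 1363. With any 1 library left out it called 0 of the 9. All 9 log2 fold changes were above 0, against 48.6% of all genes tested, with a median of 0.78 beside -0.01 for all genes, and none had groups that did not overlap (9.17% of all genes were higher and 7.57% lower without overlap). The 9 genes moved together across libraries, so their signs, here and in the comparisons below, are not separate observations.

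The embryonic globins had E11.5 log2 fold changes of 0.67 (*Hba-x*, SE 0.52, adjusted p = 0.511), 0.78 (*Hbb-y*, SE 0.52, adjusted p = 0.439) and 0.39 (*Hbb-bh1*, SE 0.72, adjusted p = 0.799), by edgeR's quasi-likelihood test. The adult alpha genes had 1.09 (*Hba-a1*, SE 0.53) and 1.10 (*Hba-a2*, SE 0.68), *Alas2* 0.67 (SE 0.47), *Slc4a1* 0.78 (SE 0.52), *Gata1* 0.55 (SE 0.59) and *Klf1* 0.90 (SE 0.55), with adjusted p from 0.289 to 0.642. At this spread even a fold change above 2, as fitted for *Hba-a1*, did not pass. Without E11.5 control replicate 1 the value of *Hbb-bh1* was -0.12, and without E11.5 mutant replicate 3 it was -0.22. With any 1 library left out the other 8 stayed above 0 but moved widely, over 0.22 to 1.40 for *Hba-x*, 0.33 to 1.35 for *Hbb-y*, 0.65 to 1.79 for *Hba-a1*, 0.62 to 1.43 for *Hba-a2*, 0.27 to 1.46 for *Alas2*, 0.33 to 1.67 for *Slc4a1*, 0.11 to 0.96 for *Gata1* and 0.42 to 1.52 for *Klf1*.

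In E10.5 foreguts, 0 of the 9 genes were called by edgeR, where 0.719% of 15295 genes were called (0.314% higher and 0.405% lower), and 0 of 9 by DESeq2, which called 5.21%. It was also 0 of 9 at an unadjusted p under 0.05, against 18.8% of all genes. All 9 log2 fold changes were above 0, against 54.8% of all genes tested, and lay between 0.08 (*Hba-a2*, SE 0.72) and 0.29 (*Gata1*, SE 0.70, and *Hba-a1*, SE 0.72), with adjusted p of 0.865 to 0.967 and a median of 0.19 beside 0.03 for all genes. Their direction turned with single libraries. Without E10.5 control replicate 3 all 9 were below 0, from -0.24 (*Hba-a1*) to -0.45 (*Hba-a2*), without E10.5 mutant replicate 2 *Hba-x* had -0.032 and *Hba-a2* -0.073, and without E10.5 mutant replicate 1 *Hbb-bh1* had -0.016, and none was called. The background moved too, to between 0 and 226 genes called by edgeR with 1 library left out, against 110 with all. No gene of the 9 had groups that did not overlap, against 11.7% of all genes higher and 13.3% lower without overlap.

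Marker lists of other cell types were also compared between genotypes, as sums of TPM and by the same tests. Heart muscle markers summed to 608 to 5263 TPM in E11.5 mutants against 90.3 to 675.5 TPM in E11.5 controls, and to 162 to 2242 TPM in E10.5 mutants against 82.0 to 97.9 TPM in E10.5 controls. *Myl2* was at 0 in 5 of the 13 libraries. By edgeR 0 of 13 heart markers tested were called at either stage (11 at an unadjusted p under 0.05 at each), and DESeq2 called 1 at E11.5 and 5 at E10.5. Macrophage markers summed to 91.8 to 141 TPM in E11.5 mutants against 67.4 to 89.1 TPM in E11.5 controls, and to 36.2 to 55.3 TPM in E10.5 mutants against 25.2 to 27.1 TPM in E10.5 controls, and edgeR called 1 of 14 at E11.5 and 0 of 11 at E10.5 (7 at an unadjusted p under 0.05 at each, and 1 and 0 by DESeq2). Foregut epithelial markers summed to 267 to 476 TPM in E11.5 mutants against 173 to 234 TPM in E11.5 controls, where edgeR called 7 of 10 higher, and to 407 to 536 TPM in E10.5 mutants against 342 to 426 TPM in E10.5 controls, with 0 called by edgeR, 5 at an unadjusted p under 0.05 and 3 by DESeq2. Foregut mesenchymal markers summed to 597 to 715 TPM in E11.5 mutants against 627 to 711 TPM in E11.5 controls, with 1 of 11 called higher and 1 lower, and to 292 to 366 TPM in E10.5 mutants against 359 to 567 TPM in E10.5 controls, with 1 called lower. Of these 11, 7 at E11.5 and 6 at E10.5 had an unadjusted p under 0.05, and DESeq2 called 7 and 4. Of 12 endothelial markers 1 was called higher at each stage by edgeR. At an unadjusted p under 0.05 there were 4 at E11.5 and 5 at E10.5, and DESeq2 called 2 at each. Of the megakaryocyte and platelet markers 0 of 9 were called at E11.5 and 0 of 7 at E10.5 (0 and 4 at an unadjusted p under 0.05, 0 and 1 by DESeq2). Of the hepatoblast markers 0 of 5 were called at E11.5 and 0 of 6 at E10.5, with 0 at an unadjusted p under 0.05 and 0 by DESeq2. Their part in the values of the red cell genes was not tested.

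The comparison of stages addressed whether the level of red cell transcripts, and their make-up, shifted from E10.5 foregut to E11.5 trachea. Stage and tissue changed together, in separate tables, and cannot be told apart. The levels did not differ detectably. In mutants 0 of the 9 genes were called by edgeR, where 15.5% of 16132 genes were called (8.12% higher and 7.4% lower), and in controls 0 of 9, where 21.3% were called (11.2% higher and 10.1% lower). DESeq2 called 0 of 9 in each, where it called 18.8% of all genes in mutants and 25.2% in controls, and 0 of 9 had an unadjusted p under 0.05, against 30.7% of all genes in mutants and 35.5% in controls. Of the 9 genes 0 had stages that did not overlap, against 14% of all genes higher and 14.1% lower in mutants, and 21.8% higher and 19.8% lower in controls. In mutants 7 of the 9 values were above 0, against 48.7% of all genes, with a median of 0.23 beside -0.01, and in controls 1 of 9, against 52.5%, with a median of -0.30 beside 0.03. Log2 fold changes of E11.5 over E10.5 in mutants were 0.11 for *Hba-x* (SE 0.68), 0.35 for *Hbb-y* (SE 0.68), -0.40 for *Hbb-bh1* (SE 0.84) and 0.67 for *Hba-a1* (SE 0.68). In controls they were -0.44 for *Hba-x* (SE 0.73), -0.25 for *Hbb-y* (SE 0.73), -0.60 for *Hbb-bh1* (SE 0.90) and -0.13 for *Hba-a1* (SE 0.72), from 1 fit of the 13 libraries. The sign turned when 1 library was left out for *Hba-x* in both genotypes and for *Hbb-y* and *Hba-a1* in controls, and the value of *Hbb-bh1* ran from -1.004 to -0.082 in mutants and from -1.48 to -0.098 in controls. Whether the genotype acted differently at the 2 stages was tested as an interaction: by edgeR and by DESeq2 0 of 9 genes were called, where edgeR called 0.0248% of all genes and DESeq2 1.57%, and 0 of 9 had an unadjusted p under 0.05, against 14.2%, with values of 0.21 to 1.02 and SE of 0.91 to 1.24. Without E11.5 control replicate 1 edgeR called 633 genes in the interaction, against 4 with all libraries, and 0 of the 9.

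**Figure D3:**
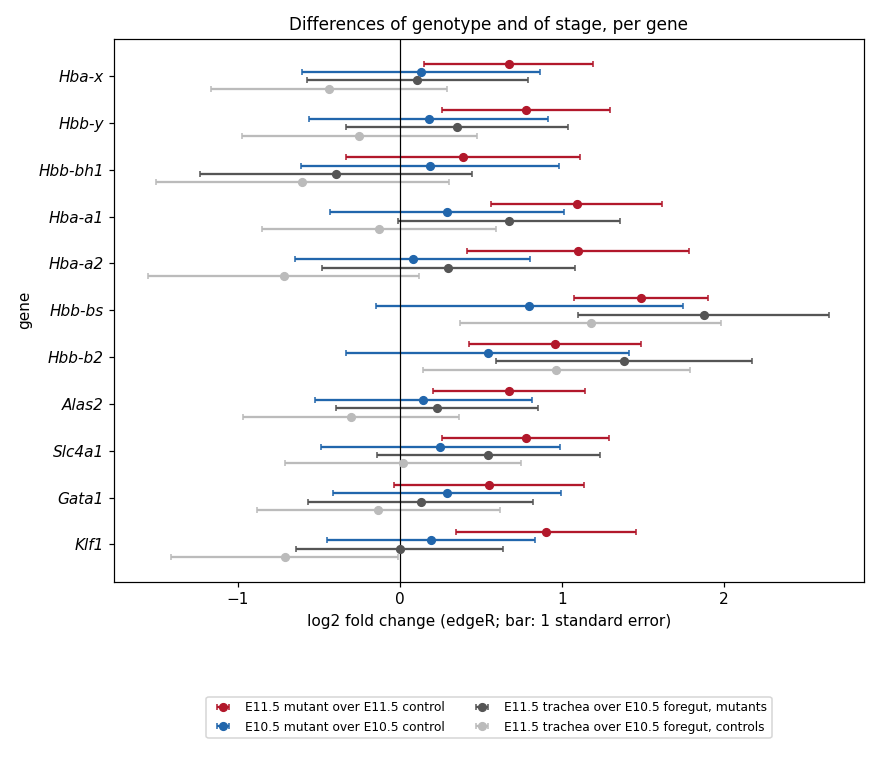
Log2 fold change (horizontal) of the 9 genes and of the adult beta globins *Hbb-bs* and *Hbb-b2* for mutant over control at each stage and for E11.5 trachea over E10.5 foregut in each genotype; bars are 1 standard error of edgeR's fit. The stage differences of *Hbb-bs* and *Hbb-b2* lie right of those of *Hbb-y* and *Hbb-bh1*, and none of the points plotted passed the test.

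The make-up of the globin transcripts did differ between stages. A ratio of 2 transcripts within a library is not scaled by depth or by the amount of blood in the dissection, so embryonic and later globins were compared as log2 ratios of TPM, by an exact two-sided permutation test that exchanged stages within each genotype. All 3 ratios were lower at E11.5, and 3 of the 6 tests run on ratios, those of stage, passed at a Benjamini-Hochberg adjusted p under 0.05.

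The adult beta globins were represented by *Hbb-bs* and *Hbb-b2*, the only adult beta rows used here. Embryonic over adult beta globin, (*Hbb-y* + *Hbb-bh1*) / (*Hbb-bs* + *Hbb-b2*), stood at 9.49, 12.6, 11.04 and 12.4 in E11.5 mutants against 22.0, 33.0 and 31.1 in E10.5 mutants. It stood at 9.35, 13.8 and 16.7 in E11.5 controls against 31.7, 41.0 and 79.4 in E10.5 controls. Every E11.5 library was below every E10.5 library. The mean log2 ratio was 3.50 ± 0.19 (SD, n = 4) in E11.5 mutants against 4.82 ± 0.32 (n = 3) in E10.5 mutants, and 3.69 ± 0.43 (n = 3) in E11.5 controls against 5.55 ± 0.68 (n = 3) in E10.5 controls. The log2 difference, averaged over genotypes, was -1.59, a ratio of 0.332 between the stages (exact permutation p = 0.00143, the smallest that the 700 arrangements allow, adjusted p = 0.00857). It was -1.32 within mutants and -1.86 within controls. Without the low pair of libraries it was -1.28 (exact permutation p = 0.00476). Adult beta transcripts were 7.34% to 9.54% of beta-type TPM in E11.5 mutants and 5.64% to 9.66% in E11.5 controls, against 2.94% to 4.35% in E10.5 mutants and 1.24% to 3.06% in E10.5 controls.

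The change was present in each adult row. *Hbb-bs* had 739, 207, 908 and 576 TPM in E11.5 mutants against 238, 183 and 77.5 TPM in E10.5 mutants, and 183, 326 and 177 TPM in E11.5 controls against 126, 151 and 3.17 TPM in E10.5 controls. With *Hbb-bs* alone as adult beta globin the log2 difference of the ratio between stages was -2.08, and with *Hbb-b2* alone it was -1.41 (exact permutation p = 0.00143 for each). As single genes neither passed in edgeR's test of stage: *Hbb-bs* had a log2 fold change of 1.88 (SE 0.77, adjusted p = 0.117) in mutants and 1.18 (SE 0.81, adjusted p = 0.319) in controls, and *Hbb-b2* 1.38 (SE 0.79, adjusted p = 0.257) in mutants and 0.97 (SE 0.82, adjusted p = 0.429) in controls. The transcripts of *Hbb-bs* share 55.8% of their 75-nt stretches with another gene, mostly *Hbb-bt*, which was not among the genes listed for both stages. The split among adult beta genes is therefore uncertain, and so is their sum here, which holds only *Hbb-bs* and *Hbb-b2*.

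*Hbb-bh1* also lost ground to *Hbb-y*. The ratio of *Hbb-bh1* to *Hbb-y* was 0.107, 0.102, 0.217 and 0.145 in E11.5 mutants against 0.316, 0.212 and 0.291 in E10.5 mutants, and 0.118, 0.184 and 0.241 in E11.5 controls against 0.309, 0.235 and 0.201 in E10.5 controls. The stages overlapped in each genotype. The log2 difference averaged over genotypes was -0.74, a ratio of 0.599 between the stages (exact permutation p = 0.0171, adjusted p = 0.0343), with -0.98 within mutants and -0.49 within controls. Without the low pair it was -0.67 (exact permutation p = 0.0286), and with any 1 library left out it lay between -0.86 and -0.60.

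The smallest of the 3 differences was that of zeta globin against adult alpha globin. The ratio of *Hba-x* to *Hba-a1* and *Hba-a2* together was 7.28, 7.90, 7.69 and 4.16 in E11.5 mutants against 8.71, 8.90 and 8.33 in E10.5 mutants, and 8.37, 7.45 and 8.90 in E11.5 controls against 9.09, 9.53 and 9.14 in E10.5 controls. Every E11.5 library was below every E10.5 library of its genotype. The log2 difference averaged over genotypes was -0.29, a ratio of 0.820 between the stages (exact permutation p = 0.01, adjusted p = 0.03), with -0.40 within mutants and -0.17 within controls. Without the low pair it was -0.30 (exact permutation p = 0.0238). E11.5 mutant replicate 4 carried much of the size, since without it the difference was -0.18 (exact permutation p = 0.005). Without E10.5 mutant replicate 1, 2 or 3 in turn the difference was -0.28, -0.28 and -0.30 and no longer passed (exact permutation p = 0.09, 0.0933 and 0.07). Zeta made up 80.6% to 88.8% of alpha-type TPM in E11.5 mutants and 88.2% to 89.9% in E11.5 controls, against 89.3% to 89.9% in E10.5 mutants and 90.1% to 90.5% in E10.5 controls.

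**Figure D4:**
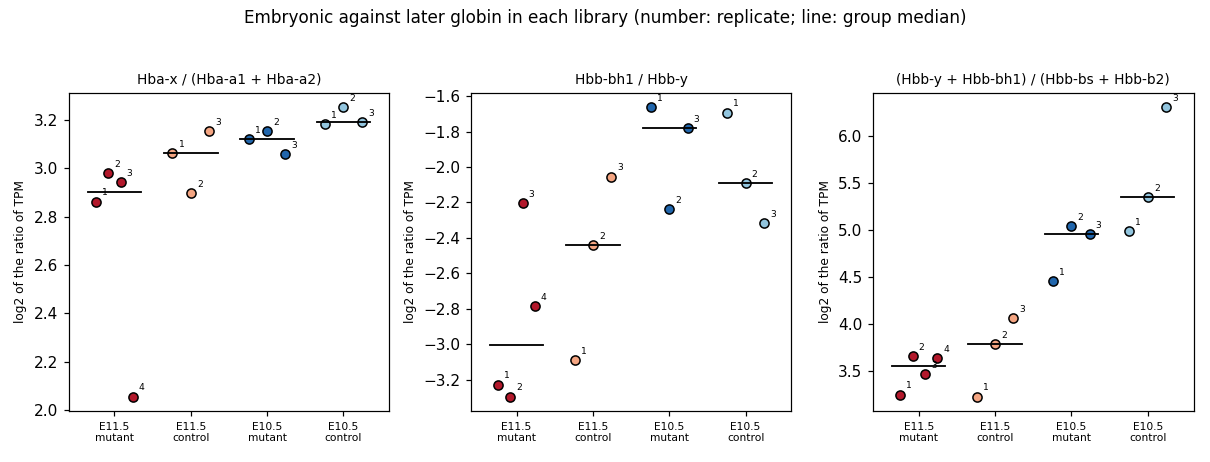
Log2 ratio of TPM of *Hba-x* to *Hba-a1* plus *Hba-a2*, of *Hbb-bh1* to *Hbb-y*, and of embryonic to adult beta globin in every library; points are libraries with their replicate number and lines are group medians. In the third panel all 7 E11.5 libraries lie below all 6 E10.5 libraries, and in the first panel E11.5 mutant replicate 4 lies far below the other E11.5 mutants.

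Between genotypes none of the 3 ratios passed. The log2 difference of mutant minus control, averaged over stages, was -0.21 for *Hba-x* to adult alpha globin (exact permutation p = 0.0586, adjusted p = 0.0879), -0.11 for *Hbb-bh1* to *Hbb-y* (p = 0.654, adjusted p = 0.654) and -0.46 for embryonic to adult beta globin (p = 0.08, adjusted p = 0.096). The first was -0.10 without E11.5 mutant replicate 4 (exact permutation p = 0.045), and its unadjusted p also fell under 0.05 without E10.5 mutant replicate 2 (p = 0.0457) and without E11.5 mutant replicate 1, 2 or 3 (p = 0.045, 0.02 and 0.03). The second was 0.013 without E11.5 control replicate 3. The third was -0.60 without E10.5 control replicate 1 (exact permutation p = 0.0371), -0.58 without E11.5 control replicate 1 (p = 0.0133) and -0.27 without E10.5 control replicate 3 (p = 0.157), so that single control libraries decided its side of the threshold. As a single gene, *Hbb-bs* had a log2 fold change of 1.49 in E11.5 mutants over E11.5 controls (SE 0.41, adjusted p = 0.0871 by edgeR) and 0.80 in E10.5 mutants over E10.5 controls (SE 0.95, adjusted p = 0.696).

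The balance of chains held within narrow limits. Alpha-type over beta-type TPM ran from 1.19 to 1.503 in E11.5 mutants and 1.21 to 1.44 in E11.5 controls, and from 1.40 to 1.55 in E10.5 mutants and 1.40 to 1.68 in E10.5 controls, while each sum by itself spanned 15.3-fold (alpha-type) and 19.4-fold (beta-type) over the libraries. *Hbb-y* was the main beta-type transcript in all libraries, at 72.7% to 84.1% of beta-type TPM.

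**Figure D5:**
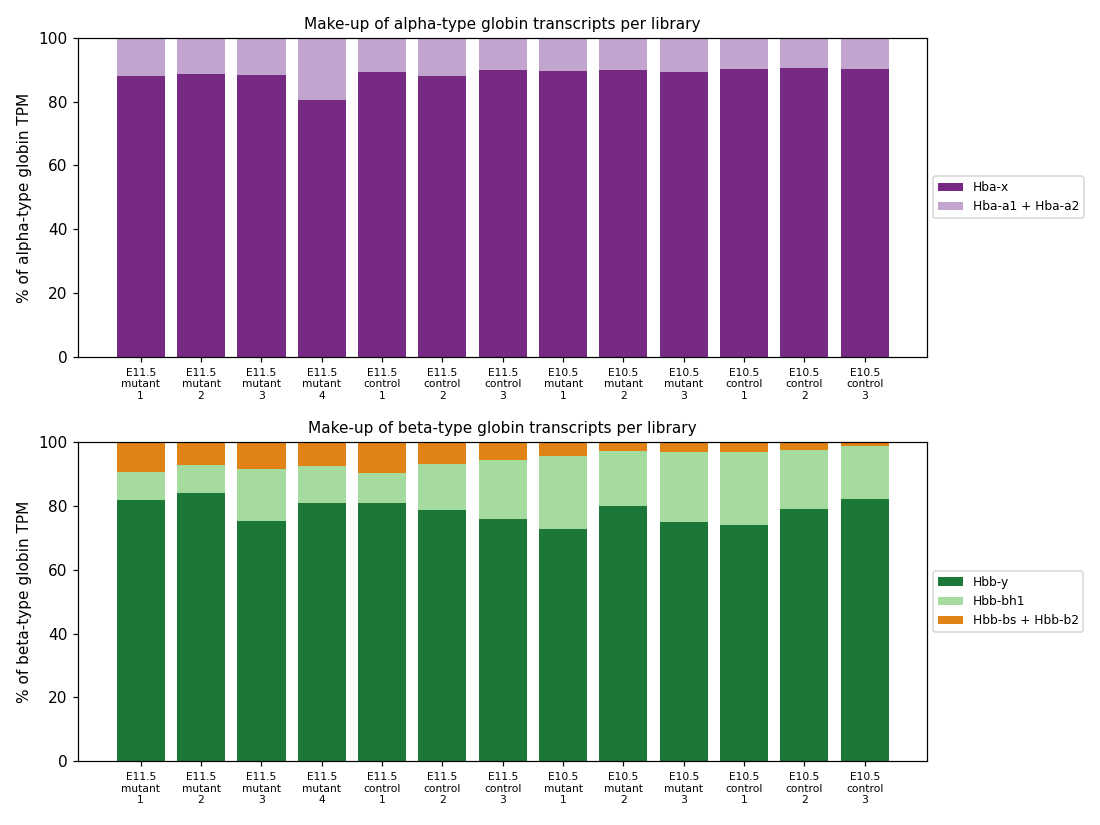
Share (%) of alpha-type TPM from *Hba-x* and from *Hba-a1* plus *Hba-a2* (upper panel), and share of beta-type TPM from *Hbb-y*, *Hbb-bh1* and *Hbb-bs* plus *Hbb-b2* (lower panel), 1 bar per library, ordered as E11.5 mutants, E11.5 controls, E10.5 mutants and E10.5 controls. The adult beta share is 5.64% to 9.66% in the 7 E11.5 libraries and 1.24% to 4.35% in the 6 E10.5 libraries.

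Other red cell genes were read from lists of the same pathway. Of 12 genes of heme synthesis, *Alas2* among them, 0 were called by edgeR in any of these comparisons; at an unadjusted p under 0.05 there was 1, in the stage difference of mutants, where DESeq2 called 1. In E11.5 mutants against E11.5 controls the list had a median log2 fold change of 0.30 and in E10.5 mutants against E10.5 controls 0.16, beside -0.01 and 0.03 for all genes. *Fech*, whose enzyme inserts iron into protoporphyrin to make heme, had 0.48 at E11.5 (SE 0.27). Of 16 red cell membrane genes, 16 were above 0 at E11.5 between genotypes (median 0.57) and 15 at E10.5 (median 0.29), with 0 called by edgeR at either stage, 1 at an unadjusted p under 0.05 at each, and 1 called by DESeq2 at E11.5. The one with the smallest p was *Tmod1*, which caps actin filaments in red cells and in heart muscle, with 0.85 at E11.5 (SE 0.28, adjusted p = 0.131) and 1.65 at E10.5 (SE 0.67, adjusted p = 0.244) by edgeR. Its r with the mean of the 9 genes was 0.55, and 0.30 without the low pair. *Tmod1* was highest in replicate 2 of the E10.5 mutants (22.4 TPM) and of the E11.5 mutants (17.25 TPM). The heart marker *Actc1* was highest in the same libraries (948 and 2982 TPM). The part of heart muscle in *Tmod1* was not tested.

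The few genes called on these lists followed the 9 genes less closely than the globins did. *Epb41*, the membrane skeleton protein 4.1, which many tissues make, was the only membrane gene called: it was lower in E11.5 than in E10.5 controls by a log2 fold change of -0.43 (SE 0.11, adjusted p = 0.0126 by edgeR), and its r with the mean of the 9 genes was 0.26. Of 14 erythroid regulators, 2 were higher and 1 lower in E11.5 than in E10.5 controls, a share close to the 21.3% of all genes called there. *Sox6* and *Bcl11a*, both repressors of embryonic beta-type globin genes in definitive red cells and both active in other tissues, had log2 fold changes of 1.11 (SE 0.13, adjusted p = 0.000165) and 0.64 (SE 0.12, adjusted p = 0.00265) by edgeR, and *Myb*, a factor of blood progenitors, fell (-0.67, SE 0.22, adjusted p = 0.0409). In mutants *Bcl11a* rose between stages (0.74, SE 0.11, adjusted p = 0.00089), whereas *Sox6* had 0.28 (SE 0.12, adjusted p = 0.137) and *Myb* 0.31 (SE 0.20, adjusted p = 0.332). With 1 library left out *Sox6* and *Bcl11a* kept their calls between stages, whereas *Myb* lost its own without E10.5 control replicate 1 or 2 or E11.5 control replicate 2 or 3 (adjusted p = 0.144, 0.0995, 0.0796 and 0.117), and *Epb41* without E10.5 control replicate 2 (adjusted p = 0.0574), all by edgeR. Their r with the 9 genes was -0.41 for *Sox6*, -0.16 for *Bcl11a* and 0.44 for *Myb*.

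*Sox6* was also the only regulator called between genotypes. It had 7.35, 8.73 and 8.21 TPM in E10.5 mutants against 3.92, 4.60 and 5.43 TPM in E10.5 controls, a log2 fold change of 0.84 (SE 0.12, adjusted p = 0.0367 by edgeR) with no overlap between the groups. The call was lost without E10.5 control replicate 1, 2 or 3 (adjusted p = 0.182, 0.137 and 0.0778) or E10.5 mutant replicate 1 or 2 (adjusted p = 0.0786 and 0.084), with log2 fold changes of 0.72 to 0.91. At E11.5 it had 8.40 to 10.46 TPM in mutants against 8.28 to 12.1 TPM in controls, a log2 fold change of 0.00 (SE 0.13, adjusted p = 0.989). The difference between stages in this effect was -0.83 (SE 0.18) and did not pass (adjusted p = 0.141 in edgeR's interaction test). Of 15 genes for iron handling and red cell enzymes tested across stages, edgeR called 1 in each genotype. This was below its 15.5% of all genes in mutants and 21.3% in controls. DESeq2 called 1 in mutants and 5 in controls, where it called 18.8% and 25.2% of all genes. The 5 of 15 in controls were above that share, but with only 15 genes no result is read from these counts. *Xpo7*, an exportin (r with the 9 genes 0.19), was lower in E11.5 than in E10.5 controls (-0.26, SE 0.08, adjusted p = 0.0386), and *Prdx2*, a peroxide-reducing enzyme abundant in red cells and present in most tissues (r 0.64), was lower in E11.5 than in E10.5 mutants (-0.50, SE 0.15, adjusted p = 0.0354), both by edgeR. With 1 library left out *Xpo7* had adjusted p of 0.020 to 0.124 and *Prdx2* of 0.0069 to 0.1004. The call of *Xpo7* was lost without E10.5 control replicate 1, 2 or 3 or E11.5 control replicate 1 or 2, and that of *Prdx2* without E10.5 mutant replicate 1, 2 or 3 or E11.5 mutant replicate 1, 2 or 4.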

How the data were processed

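Amplification of tissue RNA used the Ovation RNA-seq system v2, and Nextera XT libraries of the product, which keep no strand, were sequenced from 1 end over 75 nt. By the study's methods, reads were trimmed, aligned to mm10 with Bowtie2 and quantified with RSEM (1.3.0 in the submitters' processing notes); the sources used here do not give RSEM's gene models. The authors deposited RSEM's estimated counts per gene as whole numbers, without normalization. TPM, also made by the authors with RSEM, divides each gene's reads by its length and sums to the same total in each library. The stages were in separate tables, and neither unit was scaled across libraries. Depth was 9646701 to 17988461 counts per library.

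Counts were tested with edgeR 4.0.16 (R 4.3.3): filterByExpr, TMM factors, quasi-likelihood test, Benjamini-Hochberg adjustment over all genes tested, and a call at an adjusted p under 0.05. Each stage was fitted alone for genotype, and the 13 libraries together for stage and interaction. The SE is the log2 fold change divided by the square root of F. CPM used TMM-scaled library sizes, with a prior count of 2 on the log2 scale. Ratios were tested by exact permutation, with adjustment over 6 tests. Alternatives used RLE factors or library size, globins left out of scaling, other filters, DESeq2 1.42.0, limma 3.58.1 (voom, and log2 TPM with a pseudocount of 1 or 0.1), the replicate number as a block, each library left out, other means and pseudocounts for the ratios, and, chosen after seeing the data, the 2 low libraries left out together and single genes in the beta ratio. The fits were tested on simulated data.

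The 9 genes, the lists and the tests were chosen with earlier results of these data known. Other genes named were further globins, *Gli3*, those with the smallest p of each red cell list (up to 4 for stage in controls, up to 2 per genotype comparison), the 8 most like the mean of the 9 (1 is not reported here), markers, and genes called. All 4 E11.5 mutants were used, although the methods state 3 replicates.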

Additional observations from a re-analysis of the deposited data

Results flagged for a closer look

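Of 16 values looked at in the group of 4 E11.5 mutants, 1 stood apart from the rest by Dixon's test: the log2 ratio of *Hba-x* to adult alpha globin, which was 2.06 in E11.5 mutant replicate 4 against 2.86 to 2.98 in the other E11.5 mutants. Chance alone sets apart about 1 group in 20. The same library had 19.4% of alpha-type TPM from *Hba-a1* and *Hba-a2*, against 11.2% to 12.1% in the other E11.5 mutants, and it was the shallowest of the series (9646701 counts), while its embryonic to adult beta ratio, 12.4, lay within the range of the other E11.5 mutants. No other group had enough libraries for this test.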

How the results depend on the processing

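The count of the 9 genes called stayed at 0 in each of the 5 comparisons under every alternative run. *Gata1* had no value at E10.5 with at least 10 counts asked of every library. Without the low pair of libraries (a choice made after the data were seen, as was taking *Hbb-bs*, *Hbb-b2* or *Hbb-y* alone in the beta ratio) the E10.5 genotype values were -0.40 (*Hba-x*), -0.35 (*Hbb-y*), -0.36 (*Hbb-bh1*), -0.24 (*Hba-a1*), -0.45 (*Hba-a2*), -0.37 (*Alas2*), -0.28 (*Slc4a1*), -0.24 (*Gata1*) and -0.32 (*Klf1*), and the E11.5 value of *Hbb-bh1* was -0.12. With any 1 library left out the E10.5 values ran from -0.40 to 0.65, -0.35 to 0.64, -0.36 to 0.65, -0.24 to 0.79, -0.45 to 0.52, -0.37 to 0.60, -0.28 to 0.76, -0.24 to 0.93 and -0.32 to 0.79 for the 9 genes in the same order, and *Hbb-bh1* at E11.5 from -0.22 to 1.25. In the stage difference of controls they ran from -1.18 to 0.068 (*Hba-x*), -0.83 to 0.20 (*Hbb-y*) and -0.84 to 0.36 (*Hba-a1*), and in that of mutants from -0.22 to 0.34 (*Hba-x*). With limma-voom, log2(TPM + 1) and log2(TPM + 0.1) the stage difference of controls was 0.10, 0.17 and 0.17 for *Hbb-y* and 0.19, 0.25 and 0.25 for *Hba-a1*. None of these passed the test, and the cause of the changes of sign was not tested.

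Ratios with any 1 library left out ran, between stages, from -0.33 to -0.18 (*Hba-x* to adult alpha), -0.86 to -0.60 (*Hbb-bh1* to *Hbb-y*) and -1.73 to -1.40 (embryonic to adult beta), and between genotypes from -0.26 to -0.10, -0.25 to 0.013 and -0.60 to -0.27. Medians in place of means gave -0.12 for *Hba-x* to adult alpha between genotypes (exact permutation p = 0.0143), and the low pair left out gave -0.39 for embryonic to adult beta (p = 0.0333). Deviations from the group means correlated at r from -0.19 to 0.18 between same-numbered libraries. At E10.5 these had r of 0.08, 0.14 and 0.18, against -0.16 to 0.07 for libraries of different number. At E11.5 they had -0.09, -0.08 and 0.11, against -0.20 to 0.22. Whether the numbers pair the libraries is therefore not settled. With the replicate number as a block, *Hbb-bh1* to *Hbb-y* between stages was -0.75 (exact sign-flip permutation p = 0.0625), and the counts of the 9 genes called stayed at 0. Depth limits *Gata1*, with as few as 9 counts. Amplified reads are not independent molecules, so intervals cover counting error only. *Hba-a1* and *Hba-a2*, and the adult beta genes, share sequence, and without strand the reads of a gene and an antisense partner cannot be told apart.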

Other observations

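The share of adult alpha globin TPM given to *Hba-a1* was 74.8% to 86.9% in E11.5 mutants and 70.6% to 82.4% in E11.5 controls, against 72.8% to 74.4% in E10.5 mutants and 69.4% to 71.7% in E10.5 controls. The ratio of *Hbb-bs* to *Hbb-b2* TPM was 0.358 to 0.699 in E11.5 mutants and 0.143 to 0.735 in E11.5 controls, against 0.19 to 0.374 in E10.5 mutants and 0.14 to 0.334 in E10.5 controls. It was 0.735 in E11.5 control replicate 1 and 0.14 in E10.5 control replicate 3, both of which were low in all 9 genes. Its relation to the globin level of the library was not tested. Mouse strains carry different sets of adult beta globin genes, and the part of strain in this ratio was not tested.

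Theta globin was barely present. *Hbq1b* had 2.46 to 8.97 TPM in E11.5 mutants and 0 to 6.93 TPM in E11.5 controls, against 3.77 to 6.05 TPM in E10.5 mutants and 0.80 to 6.73 TPM in E10.5 controls, and *Hbq1a* and *Hbb-bh2* were too low to test.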
